A study of Homo sapiens with 12 samples.

Results

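MMP1, MMP13, TNC, THBS1 and MXRA5 encode secreted proteins that cut or modulate the matrix around a tumour cell. They were selected on the measured log2 levels and everolimus differences of these same arrays, and each had 1 probe set in the annotation, so the rule of using the highest probe set chose nothing further. They were 5 of 14884 genes with a named probe set, and 5 of the 10613 that passed a filter on level (at least 3 of the 12 arrays above the median of all probe sets on that array). Their levels and differences are therefore given as a description, without a test.

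The 12 Affymetrix arrays held RNA of A431 and HSC-1, both established human lines labelled as skin squamous cell carcinoma. Cells of each line received DMSO, the vehicle, or everolimus at 100 nM, for 72 h in both cases, with 3 arrays in each of the 4 groups. Everolimus is a rapamycin analogue that inhibits mTOR complex 1. The series sets out to find genes linked to resistance against everolimus, and neither the resistant line, the serum level of each line nor the origin of the 3 arrays of a group in separate cultures is given in the labels. The p-values below therefore measure only how these arrays vary, and that variation may be technical. In these bulk samples fewer cells of a type and less RNA per cell cannot be told apart. One line stands for each background, so a difference between the lines is a difference between these 2 lines.

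MMP1 (interstitial collagenase) and MMP13 (collagenase 3) are zinc proteases that cleave the triple helix of fibrillar collagen, and tumour cells and stroma use them to open a path through the dermis. Both are secreted as inactive precursors, are held in check by the TIMP proteins, and are classical targets of the AP-1 transcription factors, dimers of FOS and JUN family proteins that act downstream of EGFR and ERK. TNC (tenascin-C) and THBS1 (thrombospondin-1) are matricellular proteins: they sit in the matrix and alter adhesion, migration and growth factor access rather than bearing load, and THBS1 can also activate latent TGF-beta. MXRA5 is a secreted matrix-remodelling-associated protein with leucine-rich and immunoglobulin-like repeats, and its function is less well worked out.

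Promoter sequences are shown because TNC and MXRA5 lay on opposite sides of their DMSO levels after everolimus in HSC-1 while THBS1 lay near its DMSO level there. The RefSeq promoter table of build GRCh38.p14 matched these 3 of the 5 members, and not MMP1 or MMP13. Each window runs from 250 bases before to 50 bases after the annotated start, 5′ to 3′ on the gene's strand: TNC on chr9:115118108-115118407 (minus), THBS1 on chr15:39580829-39581128 (plus) and MXRA5 on chrX:3346603-3346902 (minus). Capitals mark matches on either strand to 5 motifs: the AP-1 site TGANTCA, the TEAD site GGAATG, the GC box GGGCGG, the CCAAT box, searched as those letters, and the TATA box, searched as TATAA. In the THBS1 window a GC box and the CCAAT box, both on the opposite strand, touch and form 1 run of capitals.
TNC: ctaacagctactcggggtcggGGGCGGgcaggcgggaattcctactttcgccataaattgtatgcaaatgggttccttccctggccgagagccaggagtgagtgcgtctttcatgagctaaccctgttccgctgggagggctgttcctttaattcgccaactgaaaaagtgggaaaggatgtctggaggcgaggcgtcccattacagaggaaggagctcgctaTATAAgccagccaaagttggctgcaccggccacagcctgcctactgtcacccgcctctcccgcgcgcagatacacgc
THBS1: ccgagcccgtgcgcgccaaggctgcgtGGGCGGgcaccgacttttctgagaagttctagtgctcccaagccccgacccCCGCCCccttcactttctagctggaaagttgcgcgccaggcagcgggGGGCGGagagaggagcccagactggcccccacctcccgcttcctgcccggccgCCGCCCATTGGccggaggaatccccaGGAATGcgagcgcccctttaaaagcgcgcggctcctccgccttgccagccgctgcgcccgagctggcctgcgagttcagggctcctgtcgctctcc
MXRA5: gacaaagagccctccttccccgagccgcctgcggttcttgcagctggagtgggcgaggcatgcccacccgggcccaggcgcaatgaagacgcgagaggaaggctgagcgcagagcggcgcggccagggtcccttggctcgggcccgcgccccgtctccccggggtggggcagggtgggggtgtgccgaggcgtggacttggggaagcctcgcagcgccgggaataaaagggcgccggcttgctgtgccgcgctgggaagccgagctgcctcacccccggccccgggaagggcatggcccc
The TNC window held 1 TATA box, whose first base lies 27 bases before the start, and 1 GC box. The THBS1 window held 4 GC boxes, 1 CCAAT box directly beside one of them and 1 TEAD match that begins 46 bases before the start. The MXRA5 window held 0 matches to any of the 5 motifs, and the AP-1 letters were in 0 of the 3 windows. Over the 27305 promoters of the table, the AP-1 site was found in 7.76%, the TEAD site in 14.0%, the GC box in 44.6%, the CCAAT box in 35.7% and the TATA box in 21.1%. The GC content was 57.3% for TNC, 70.0% for THBS1 and 73.3% for MXRA5. Only the stated letters were searched, so variants of a motif, TATA-like ones among them, are not counted. These matches describe letters in the reference and say nothing of binding in these cells.

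The probe annotation paired 16098 of 53617 probe sets with a gene. Levels are log2 values, and the array medians lay between 4.34 and 4.39, which serves as the mark for a low level because the table carries no detection flags. Pearson's r over the probe sets was 0.989 to 0.992 between arrays of a group and 0.955 to 0.962 between arrays of different lines. Between arrays of the same line with different treatments it was 0.987 to 0.991, close to the range within a group. All 7 named of 11 keratinocyte markers (KRT5, KRT14, KRT15, DSP, DSG3, PKP1 and SFN) lay above the array median on all 12 arrays, with a mean level per array of 9.37 to 9.64. Of the markers of other cells, DCN and TCF21 (fibroblast), PECAM1, VWF, KDR and EMCN (endothelium), CD163 and LYZ (leukocyte), and MLANA, TYR and TYRP1 (melanocyte) lay below the median on every array. THY1 (fibroblast), CLDN5 (endothelium), CD68 (leukocyte), and MITF and SOX10 (melanocyte) lay above it on every array. LUM, CD14 and PMEL lay below it on some arrays only. With DMSO the mean of CD68 was 10.71 in A431 and 7.99 in HSC-1. The mean of the 4 named leukocyte markers was 5.25 to 5.35 on A431 arrays with DMSO and 4.58 to 4.67 on those of HSC-1, that of the 5 endothelial markers 3.74 to 3.95 and 3.84 to 3.95, and that of the 6 melanocyte markers 4.08 to 4.23 and 4.20 to 4.21; their part in the line differences was not tested.

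The level of MMP1 (probe set 16743721) separated the lines and, in HSC-1, the treatments. On the HSC-1 arrays with DMSO it was 6.26, 6.08 and 6.05, and with everolimus 4.66, 4.68 and 5.07. In A431 it was 3.04, 3.45 and 2.95 with DMSO and 3.21, 3.47 and 3.57 with everolimus. All 6 A431 arrays lay below their array medians, and the 2 A431 groups overlapped. In HSC-1 every everolimus array was lower than every DMSO array, with a gap of 0.98 between the groups, and all 6 lay above the array median. Those with everolimus lay above it by 0.44 on average. The HSC-1 mean was 6.13 ± 0.11 with DMSO and 4.80 ± 0.23 with everolimus (SD, n = 3), a log2 difference of -1.32 ± 0.15 (moderated SE), or 2.50-fold lower. Among the 5845 genes with a negative difference in HSC-1 this ranked 8 by size. In A431 the difference was 0.27 ± 0.15, less than the range within either A431 group. The difference between HSC-1 and A431 in DMSO was 2.98 ± 0.15. No fold is given for it, since the A431 value lay below the array median.

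MMP13 (16743764), the other collagenase, had the same order of the lines at a level above the median in every group. With DMSO the HSC-1 arrays read 8.82, 8.91 and 8.87, and with everolimus 8.003, 7.998 and 7.991. The A431 arrays read 5.88, 6.02 and 5.79 with DMSO and 6.02, 5.96 and 5.65 with everolimus. The HSC-1 groups were apart by 0.82, while the A431 groups overlapped. In HSC-1 the difference was -0.87 ± 0.08, or 1.83-fold lower, ranked 28 of 5845, and in A431 it was -0.02 ± 0.08. In DMSO, HSC-1 was higher than A431 by 2.97 ± 0.08, or 7.84-fold, and with everolimus the 2 line means were apart by 2.12. The MMP13 mean with everolimus in HSC-1, 7.997 ± 0.0058 (SD, n = 3), thus still lay above every A431 array.

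TNC (17097661) had the largest difference between the lines of the 5 genes. The A431 arrays read 4.59, 4.60 and 4.63 with DMSO and 4.57, 4.81 and 4.48 with everolimus, so both groups sat just above the array median and overlapped. The HSC-1 arrays read 8.75, 8.80 and 8.75 with DMSO and 8.21, 8.27 and 8.31 with everolimus, and these groups did not overlap. The line difference in DMSO was 4.16 ± 0.08, or 17.9-fold, the 7th of the 5353 genes with a positive value. The A431 mean with DMSO lay only 0.26 above the array median, so low signal limits this fold. Everolimus arrays of HSC-1 were lower by 0.51 ± 0.08 on the log2 scale, or 1.42-fold, and in A431 the difference was 0.01 ± 0.08. That A431 value changed sign, to -0.08, without A431 everolimus array 2, the array at 4.81.

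THBS1 (16799315) was well above the median in all groups and was the only one of the 5 whose highest group was HSC-1 with everolimus. In A431 its arrays read 8.64, 8.69 and 8.67 with DMSO and 8.34, 8.50 and 8.36 with everolimus, without overlap, and the difference was -0.27 ± 0.04, or 1.21-fold lower. In HSC-1 they read 10.97, 10.92 and 10.91 with DMSO and 11.03, 10.99 and 11.03 with everolimus. These groups did not overlap either, but the gap of 0.02 between them was smaller than the SE of the difference, 0.08 ± 0.04. HSC-1 exceeded A431 by 2.26 ± 0.04 in DMSO (4.80-fold) and by 2.62 with everolimus (6.13-fold).

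MXRA5 (17108816) ran the other way: it was higher in A431 than in HSC-1, and higher with everolimus than with DMSO. The A431 arrays read 8.42, 8.38 and 8.33 with DMSO and 8.56, 8.55 and 8.50 with everolimus. The HSC-1 arrays read 5.85, 5.88 and 6.02 with DMSO and 7.24, 7.15 and 7.07 with everolimus. All 4 groups were apart from each other, and all lay above the array median. In HSC-1 the mean went from 5.92 ± 0.09 to 7.15 ± 0.09 (SD, n = 3), a difference of 1.23 ± 0.06, or 2.35-fold higher, the 3rd of 4768 positive differences. In A431 the difference was 0.16 ± 0.06, or 1.12-fold. The A431 level exceeded that of HSC-1 5.49-fold in DMSO and 2.60-fold with everolimus. Among the fibroblast markers LUM was likewise higher in A431 (4.89 against 2.85 in DMSO), but TCF21 (3.46 against 3.82), THY1 (4.81 against 4.86) and DCN (2.16 in both) were not. The mean of the 4 named of 10 fibroblast markers was 3.73 to 3.89 on the A431 arrays with DMSO and 3.33 to 3.47 on those of HSC-1. DCN and TCF21 were below the median on all arrays, and that mean was 3.24 to 3.39 on the HSC-1 arrays with everolimus and 3.74 to 4.06 on the A431 arrays with everolimus; its part in the MXRA5 values was not tested.

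**Figure D1:**
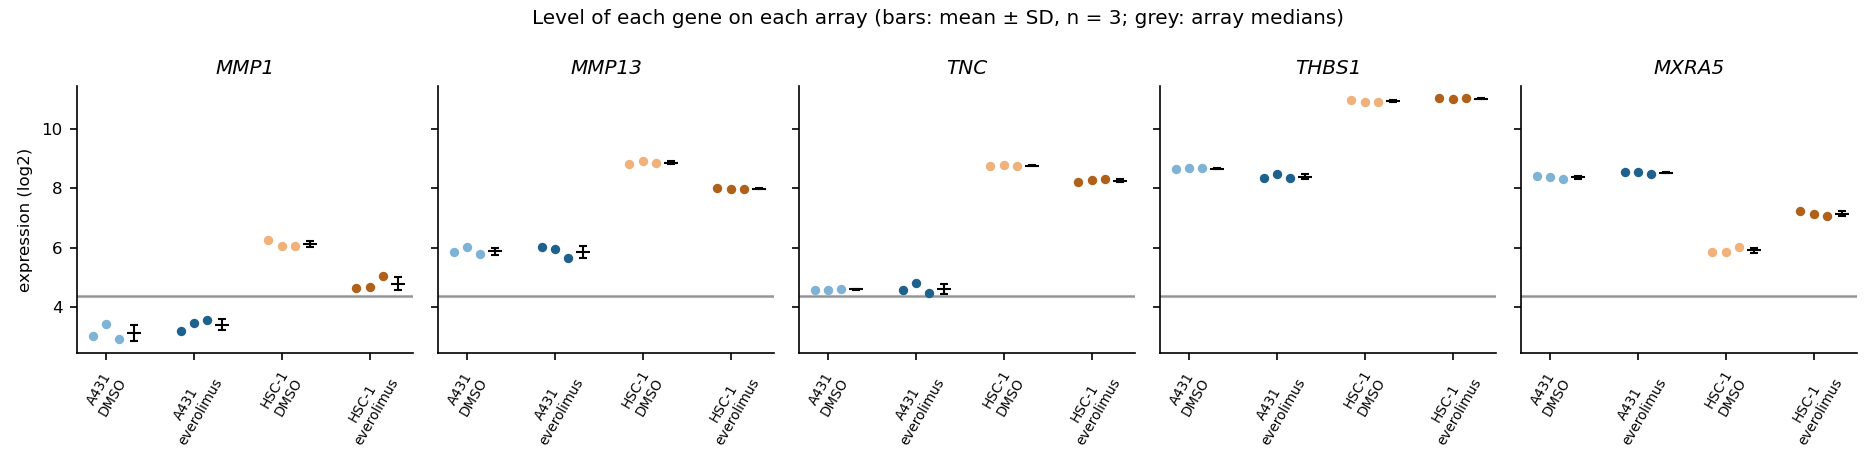
The log2 level of each of the 5 genes (vertical axis) on each of the 12 arrays, by line and treatment, with points for arrays, black bars for the mean ± SD of 3 arrays and a grey band for the array medians of 4.34 to 4.39. MMP1 lies below the band in A431 and above it in HSC-1, and MXRA5 is the only gene of the 5 that is higher in A431.

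Counted over the 5 genes, the everolimus and DMSO groups of HSC-1 were apart for all 5, of which 3 were lower (MMP1, MMP13, TNC) and 2 higher (MXRA5, THBS1). Among all tested genes 33.3% had HSC-1 groups that did not overlap, 19.6% lower and 13.7% higher. In A431 the groups were apart for 2 of 5, THBS1 lower and MXRA5 higher, beside 24.5% of all tested genes (13.5% lower and 11.0% higher). The lines in DMSO were apart for all 5, with 4 higher in HSC-1 and 1 lower, beside 65.3% of all tested genes (32.3% higher and 32.9% lower). The members were chosen by these values, so nothing is read from the counts. For MMP1, MMP13, TNC and MXRA5 the mean of HSC-1 with everolimus lay between those of HSC-1 and A431 with DMSO, and for THBS1 it did not. Those comparisons share the HSC-1 arrays with DMSO.

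Subtracting the A431 effect from that in HSC-1 gave -1.59 ± 0.22 for MMP1, -0.85 ± 0.12 for MMP13, -0.52 ± 0.11 for TNC, 0.35 ± 0.06 for THBS1 and 1.08 ± 0.09 for MXRA5. By size these ranked 4, 73, 388, 1339 and 25 of the 10613 genes. In order of group means, HSC-1 with DMSO was highest and HSC-1 with everolimus second for MMP1, MMP13 and TNC, and the A431 groups below them were not separated beyond their spread. For THBS1 and MXRA5 each neighbour in the order was apart. The value of -1.59 for MMP1 includes an A431 effect of 0.27 between groups that both lay below the array median.

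**Figure D2:**
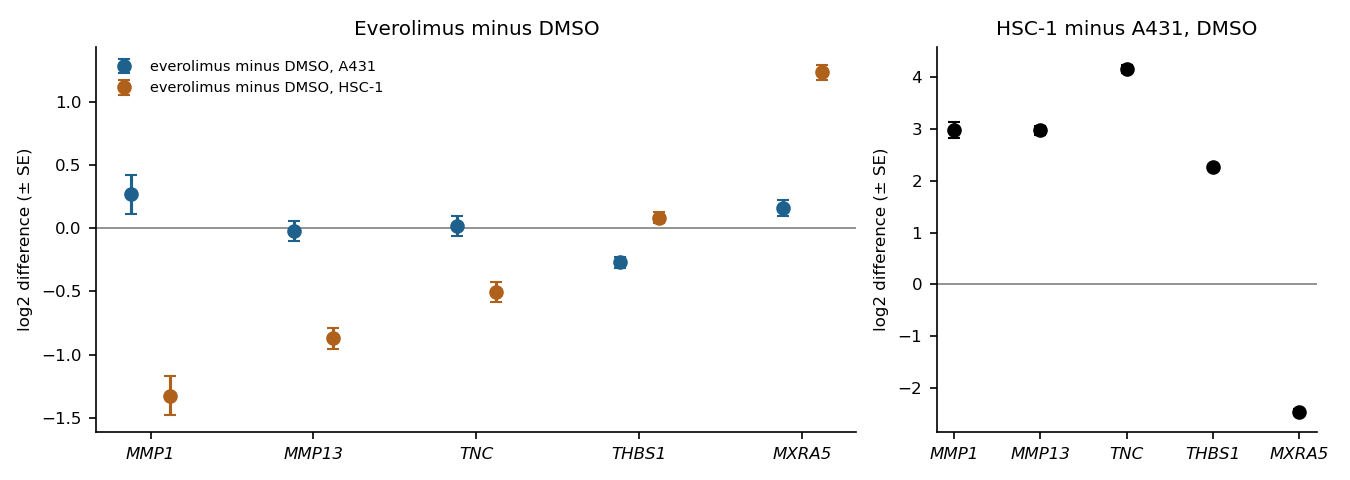
Log2 differences of the 5 genes with the moderated SE as bars (vertical axes), on the left for everolimus minus DMSO in A431 (blue) and HSC-1 (orange), and on the right for HSC-1 minus A431 in DMSO (black). The HSC-1 values run from -1.32 for MMP1 to 1.23 for MXRA5, while the A431 values stay between -0.27 and 0.27.

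Genes that share the matrix pathway of the members were read from 11 lists of 213 genes, of which 140 had a named probe set and 115 were tested with limma. With everolimus 6 rose and 16 fell in A431 (19.1% called, beside 6.73% of all tested genes, 2.39% higher and 4.33% lower), and 18 rose and 15 fell in HSC-1 (28.7%, beside 18.6%, 7.34% higher and 11.3% lower). The median log2 difference was -0.01 in A431 and -0.03 in HSC-1, close to the -0.0038 and -0.02 of all genes, so the middle of the lists lay near that of all genes. The effect differed between the lines for 27 of 115 (beside 10.5% of all genes, 4.84% higher and 5.69% lower in HSC-1), and the lines differed in DMSO for 86 (beside 59.4%, 29.2% higher and 30.2% lower in HSC-1). The lists were chosen with earlier results of these data known, so nothing is read from these shares. In the lists below, rose, fell and passed refer to a limma adjusted p under 0.05 over all 10613 genes. Where other settings ended such a call, the arrays whose omission did so are named with the limma adjusted p, with other settings in part, followed by the lowest p over the settings tried; a vehicle array is one with DMSO, and the trend is the dependence of the variance on intensity.

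Of 21 other MMP genes 17 were named and 8 tested. With everolimus 0 rose and 1 fell in A431 (median -0.07) and 0 passed in HSC-1 (median -0.01), where MMP25, a membrane-anchored member, was the 1 gene with an unadjusted limma p under 0.05, at 0.28 ± 0.11. MMP14, the membrane-type enzyme that activates MMP2 and can start the activation of MMP13, fell in A431 from 8.83 ± 0.04 to 8.65 ± 0.03 (SD, n = 3), by 0.18 ± 0.04 (limma adjusted p = 0.00971), and was at 0.02 ± 0.04 in HSC-1. Its A431 call ended without A431 vehicle array 2 (limma adjusted p = 0.0586) and with no intensity trend (0.0655), its lowest value being 0.00524. In DMSO 3 of the 8 were lower in HSC-1 and 0 higher, with differences of -0.36 ± 0.08 for MMP28, -0.33 ± 0.13 for MMP17 and -0.30 ± 0.04 for MMP14. The MMP17 call (adjusted p = 0.0406) was lost in 7 of 22 alternatives, among them without A431 vehicle array 1 (0.109) or 2 (0.107) and HSC-1 vehicle array 1 (0.0923), 2 (0.0572) or 3 (0.0875), in a range from 0.0126.

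MMP1 and MMP13 lie in 1 cluster of MMP genes on chromosome 11, where MMP3 and MMP12 are annotated between them in GRCh38.p14. The named cluster neighbours MMP8, MMP12, MMP20 and MMP27 lay below the array median on all 12 arrays. MMP10, next to MMP1 on the other side, lay below it on 11 of 12, with 3.62, 3.63 and 4.44 in HSC-1 with DMSO and 4.21, 3.80 and 4.02 with everolimus. So of the 7 cluster genes with a named probe set, MMP1 and MMP13 were the 2 that lay above the median on all HSC-1 arrays. MMP3, MMP7 and MMP9 lack a named probe set and were not analysed here.

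Of the 5 tested of 6 inhibitors of these proteases, 0 rose and 1 fell in A431 (median 0.09), and 1 rose and 1 fell in HSC-1 (median 0.14). TIMP2, which binds MMP2 and MMP14, read 7.91, 7.93 and 7.92 in A431 with DMSO and 7.46, 7.41 and 7.41 with everolimus, a fall of 0.49 ± 0.05 (limma adjusted p = 4.72e-06). In HSC-1 it was at 0.14 ± 0.05, which did not pass, and the effects differed by 0.64 ± 0.07 (adjusted p = 1.45e-05). TIMP3, the matrix-bound inhibitor, rose in HSC-1 by 0.18 ± 0.05 (adjusted p = 0.00901), a call lost on averaging its probe sets (0.16), without HSC-1 vehicle array 3 (0.0541) and without the trend (0.0562), in a range from 0.00312. TIMP4 fell in HSC-1 by 0.57 ± 0.13 to a level that was below the median on 2 of 3 arrays. TIMP1 had differences of 0.09 ± 0.05 and -0.05 ± 0.05, neither past the threshold. In DMSO, RECK, a membrane-bound MMP inhibitor, was higher in HSC-1 by 1.67 ± 0.11 and TIMP3 lower by 1.28 ± 0.05. TIMP2 was higher by 0.15 ± 0.05 (adjusted p = 0.014), a call lost without HSC-1 vehicle array 1 (0.0606) or 2 (0.081), in a range from 0.00135.

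Of 14 tested other matrix proteases and cross-linking enzymes, 0 rose and 3 fell in A431 (median -0.14), and 1 rose and 5 fell in HSC-1 (median -0.19). ADAM12, a disintegrin metalloprotease that sheds growth factors such as HBEGF, read 6.41, 6.65 and 6.46 in HSC-1 with DMSO and 5.67, 5.44 and 5.56 with everolimus, a fall of 0.95 ± 0.15 (limma adjusted p = 0.000201). Like MMP1 it was under the array median on each of the 6 A431 arrays, and in DMSO it was higher in HSC-1 by 2.59 ± 0.15. LOXL2, a collagen cross-linking oxidase, fell in HSC-1 by 0.66 ± 0.10 (adjusted p = 0.000162), and the epithelial protease ST14 (matriptase) fell there by 0.34 ± 0.06. CTSK, a lysosomal collagenase, rose by 0.41 ± 0.11 (adjusted p = 0.0168), a call lost without HSC-1 vehicle array 2 (0.0714) or HSC-1 everolimus array 1 (0.0746), in a range from 0.0112.

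In A431 the falls in that list were HPSE, which cuts heparan sulfate (-0.39 ± 0.11, limma adjusted p = 0.0309), BMP1, the procollagen C-proteinase (-0.34 ± 0.06, 0.00234), and ST14 (-0.26 ± 0.06, 0.0111). The HPSE call was lost without A431 vehicle array 1 (0.176) or 2 (0.0964), A431 everolimus array 1 (0.107) or 2 (0.0985) and with a replicate block (0.0535), in a range from 0.00756. The ST14 call was lost without A431 vehicle array 1 (0.0704) and without the trend (0.0545), in a range from 0.00489. In DMSO 2 of the 14 were higher in HSC-1 and 9 lower, among them CTSB, a lysosomal cysteine protease (1.21 ± 0.06), and ADAM15 (-0.87 ± 0.06). PLAU and PLAUR, of the plasminogen activator system, lack a named probe set and were not analysed here.

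Of 5 tested tenascins and thrombospondins 0 passed in A431, where THBS3 was the 1 gene with an unadjusted limma p under 0.05 (-0.21 ± 0.10), and 1 rose in HSC-1. That was THBS3, a thrombospondin of the pentameric group, from 4.83, 4.84 and 4.78 to 5.49, 5.24 and 5.49, by 0.59 ± 0.10 (limma adjusted p = 0.00039). In DMSO THBS3 (-0.76 ± 0.10), TNXB (-0.42 ± 0.09) and THBS2 (-0.30 ± 0.12) were lower in HSC-1, and 0 were higher, while TNC and THBS1 lay higher there. Averaging its probe sets ended the TNXB call (adjusted p = 0.0825, from 0.000116). The THBS2 call (limma adjusted p = 0.0384) was lost without A431 vehicle array 1 (0.157) or 2 (0.0541) and HSC-1 vehicle array 2 (0.075) or 3 (0.109), in a range from 0.0163.

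Among 15 other matricellular and matrix remodelling genes, 0 rose and 3 fell in A431 (median 0.03), and 2 rose and 0 fell in HSC-1 (median 0.06). SPP1 (osteopontin), a secreted integrin ligand, read 6.10, 6.27 and 6.13 in A431 with DMSO and 5.43, 5.06 and 5.55 with everolimus, a fall of 0.82 ± 0.15 (limma adjusted p = 0.00241), and lay below the median on all 6 HSC-1 arrays. ECM1, a dermal matrix glycoprotein, fell in A431 by 0.77 ± 0.08, and FBLN1 (fibulin-1) by 0.29 ± 0.05. In HSC-1 IGFBP7 rose by 0.21 ± 0.04 and the secreted protease HTRA1 by 0.38 ± 0.13 (adjusted p = 0.0412). The HTRA1 call was lost in 8 of 22 alternatives, among them without HSC-1 vehicle array 1 (0.16) or 3 (0.101), HSC-1 everolimus array 1 (0.159) or 2 (0.154) and A431 vehicle array 2 (0.051), in a range from 0.0082. CCN2 (connective tissue growth factor) had differences of 0.12 ± 0.18 and 0.44 ± 0.18, neither past the threshold. In DMSO 7 of the 15 were higher in HSC-1 and 5 lower, with SMOC1 at 2.18 ± 0.10, CCN2 at 1.76 ± 0.18 and SPP1 at -2.40 ± 0.15.

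Of 15 collagen and fibronectin genes only FN1 (fibronectin), which both TNC and THBS1 bind, was named and tested, so the substrates of the collagenases are not analysed here. FN1 read 8.11, 8.03 and 8.13 in HSC-1 with DMSO and 8.93, 8.94 and 8.90 with everolimus, a rise of 0.83 ± 0.07 (limma adjusted p = 1.18e-07). In A431 its difference was 0.03 ± 0.07, and the effects differed by 0.81 ± 0.10 (adjusted p = 3.23e-05). In DMSO it was higher in HSC-1 by 2.01 ± 0.07.

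Receptors and activators of the members were split. Of 11 tested, 0 rose and 4 fell in A431 (median -0.09), and 3 rose and 3 fell in HSC-1 (median -0.06). F2R, the thrombin receptor PAR1, which MMP1 can cleave and activate, rose in HSC-1 from 7.87, 7.90 and 7.67 to 8.71, 8.32 and 8.72, by 0.77 ± 0.15 (limma adjusted p = 0.00128), while its A431 groups overlapped (-0.06 ± 0.15). TLR4, a receptor for TNC, fell in HSC-1 by 0.52 ± 0.15 (adjusted p = 0.019) and lay below the median on 5 of 6 A431 arrays. That call was lost without HSC-1 vehicle array 2 (0.124) and HSC-1 everolimus array 1 (0.0623) or 3 (0.083), in a range from 0.00978. CALR (calreticulin), a surface partner of THBS1, fell by 0.35 ± 0.04 in HSC-1 and 0.23 ± 0.04 in A431. In A431 the heparan sulfate proteoglycans SDC1 and SDC4 fell by 0.46 ± 0.05 and 0.17 ± 0.04, and SDC4 rose in HSC-1 by 0.29 ± 0.04. The A431 call of SDC4 (adjusted p = 0.00989) was lost without A431 vehicle array 2 (0.0751), A431 everolimus array 2 (0.0593) and the trend (0.117), in a range from 0.00177.

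The THBS1 receptor CD47, the hyaluronan receptor CD44 and EGFR, which the EGF-like repeats of TNC can bind, did not pass in either line (CD47 -0.01 ± 0.07 in A431 and -0.18 ± 0.07 in HSC-1, CD44 0.01 ± 0.04 and -0.06 ± 0.04, EGFR -0.01 ± 0.03 and 0.01 ± 0.03). BSG, also called EMMPRIN for its induction of MMPs, fell in HSC-1 by 0.12 ± 0.04 (limma adjusted p = 0.0223). Its call was lost without HSC-1 vehicle array 1 (0.0633) or 2 (0.115), HSC-1 everolimus array 2 (0.0733) or 3 (0.051) and the trend (0.147), in a range from 0.00939. In DMSO 3 of the 11 were higher in HSC-1 and 6 lower. LRP1, the endocytic receptor that clears THBS1 and MMP13, was lower by 2.67 ± 0.06, F2R higher by 2.40 ± 0.15 and TLR4 by 2.10 ± 0.15. EGFR was higher in HSC-1 (12.52 ± 0.03) than in A431 (11.64 ± 0.02, SD, n = 3), although A431 is known for its EGFR amplification.

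Transcription factors of the AP-1, ETS and RUNX families, which act on the MMP1 and MMP13 promoters, were represented by 17 tested genes. With everolimus 2 rose and 0 fell in A431 (median 0.10), and 0 rose and 3 fell in HSC-1 (median -0.13). FOSL1, the FOS family subunit FRA1, read 8.14, 8.06 and 8.02 in HSC-1 with DMSO and 6.95, 7.30 and 7.05 with everolimus, a fall of 0.97 ± 0.08 (limma adjusted p = 6.25e-08). In A431 it read 7.39, 7.26 and 7.32 and then 7.55, 7.55 and 7.39, a difference of 0.17 ± 0.08 that did not pass, and the effects differed by -1.15 ± 0.11 (adjusted p = 2.01e-06). JUN fell in HSC-1 by 0.29 ± 0.09 (adjusted p = 0.0317), a call lost without HSC-1 vehicle array 1 (0.0972) or 3 (0.0963), HSC-1 everolimus array 2 (0.193) and the trend (0.0577), in a range from 0.00454. ETS1 fell by 0.27 ± 0.08 (0.0345), lost without HSC-1 vehicle array 1 (0.145) or 3 (0.0714), HSC-1 everolimus array 2 (0.0884) or 3 (0.117) and the trend (0.0514), in a range from 0.0182.

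RUNX2, a regulator of MMP13 in bone and cartilage, rose in A431 by 0.48 ± 0.10 (limma adjusted p = 0.00544) and was at 0.06 ± 0.10 in HSC-1. ETV4 rose in A431 by 0.36 ± 0.10 (0.0411), a call lost in 11 of 22 alternatives, among them without A431 vehicle array 2 (0.196) or 3 (0.0738), A431 everolimus array 1 (0.158) or 3 (0.103) and HSC-1 vehicle array 1 (0.0544) or 2 (0.0537), in a range from 0.025. In DMSO 12 of the 17 were higher in HSC-1 and 2 lower (median 0.48, beside 0.0048 for all genes). ERG was higher by 1.29 ± 0.10, JUND by 1.20 ± 0.06, JUN by 1.12 ± 0.09 and FOSL1 by 0.75 ± 0.08.

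**Figure D3:**
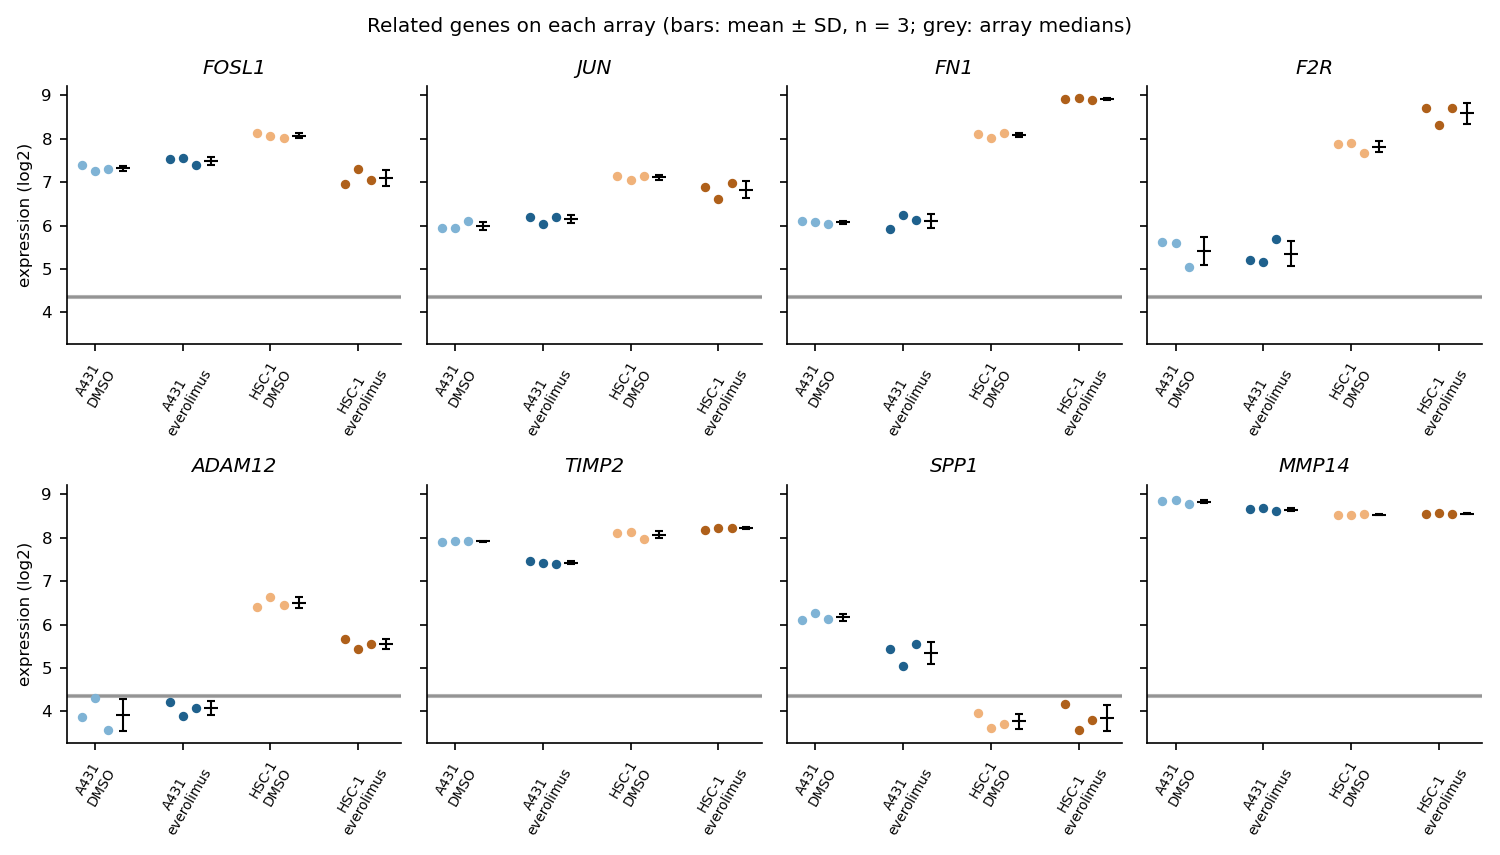
Log2 level (vertical axis) on each array of 8 genes related to the members, with black bars for the mean ± SD of 3 arrays and a grey band for the array medians. In HSC-1 the everolimus arrays are lower for FOSL1, JUN and ADAM12 and higher for FN1 and F2R, and in A431 they are lower for TIMP2, SPP1 and MMP14.

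TGF-beta, which THBS1 can activate and which induces many matrix genes, was represented by 10 tested genes. In A431 3 rose and 0 fell (median 0.10), and in HSC-1 3 rose and 0 fell (median 0.12). SMAD6, an inhibitory SMAD, rose by 0.47 ± 0.10 in A431 and 0.39 ± 0.10 in HSC-1, and SKIL, a SMAD corepressor, by 0.43 ± 0.06 and 0.26 ± 0.06. The A431 call of SMAD6 (limma adjusted p = 0.00809) was lost without A431 vehicle array 2 (0.0532) or A431 everolimus array 1 (0.0571), in a range from 0.00345. SMAD2 rose in HSC-1 by 0.26 ± 0.07 (0.0171), lost without HSC-1 vehicle array 3 (0.104), HSC-1 everolimus array 1 (0.0869) and the trend (0.0641), in a range from 0.00806. The third rise in A431 was SKI (0.28 ± 0.08, 0.0395). It was lost in 9 of 22 alternatives, at up to 0.148 without A431 vehicle array 1, and without A431 vehicle array 3 (0.108), A431 everolimus array 1 (0.0734), 2 (0.146) or 3 (0.0724) and HSC-1 vehicle array 1 (0.0522), in a range from 0.0295. SKI, also a SMAD corepressor, was at 0.12 ± 0.08 in HSC-1, and SMAD7, another inhibitory SMAD, passed in neither line (0.38 ± 0.12 in A431 and -0.11 ± 0.12 in HSC-1). For this list 0 genes differed between the lines' effects by limma, and 1, SMAD7 (-0.50 ± 0.17), had an unadjusted p under 0.05. In DMSO 1 was higher in HSC-1 and 6 lower, with SMAD6 at -1.65 ± 0.10, SMAD2 at -1.51 ± 0.07 and SMAD4 at -1.26 ± 0.05. SMAD6 lay below the array median on 1 of 3 HSC-1 arrays with DMSO, so low signal limits its HSC-1 rise and its line difference.

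The YAP list was drawn up from target genes, with matrix-linked genes and the receptor kinase AXL among them, and from the pathway genes YAP1, WWTR1 and TEAD1. Of its 16 tested genes 1 rose and 1 fell in A431 (median -0.00091), and 5 rose and 1 fell in HSC-1 (median 0.04). AXL rose by 0.51 ± 0.05 in A431 (limma adjusted p = 1.77e-06) and 0.23 ± 0.05 in HSC-1. CRIM1, a transmembrane regulator of BMP ligands, rose in HSC-1 by 0.33 ± 0.06 and the WNT inhibitor DKK1 by 0.29 ± 0.05, while FJX1 fell by 0.31 ± 0.06. IGFBP3 fell in A431 by 0.31 ± 0.08 (0.0326), a call lost without each of the 6 A431 arrays, at 0.0819 without A431 vehicle array 2 to 0.119 without A431 vehicle array 3, and without the trend (0.0656), in a range from 0.000804. In DMSO 9 of the 16 were higher in HSC-1 and 5 lower, among them ANKRD1 (3.34 ± 0.12, below the median on all 6 A431 arrays), CRIM1 (1.45 ± 0.06) and IGFBP3 (-4.26 ± 0.08). The IGFBP3 mean in HSC-1 with DMSO lay only 0.17 above the array median.

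Among 13 tested genes of epithelial and mesenchymal state, 0 rose and 3 fell in A431 (median -0.04), and 1 rose and 2 fell in HSC-1 (median -0.05). The A431 falls were the epithelial regulator OVOL2 (-0.47 ± 0.10), the tight junction protein CLDN1 (-0.31 ± 0.04) and the splicing factor ESRP2 (-0.30 ± 0.06). In HSC-1 GRHL2, an epithelial transcription factor, rose by 0.29 ± 0.04, EPCAM fell by 0.25 ± 0.05 and ESRP2 fell by 0.20 ± 0.06 (limma adjusted p = 0.0263). The ESRP2 call in HSC-1 was lost without HSC-1 vehicle array 1 (0.164) or 3 (0.0628), HSC-1 everolimus array 2 (0.0894) or 3 (0.0809), without the trend (0.0728) and on the 6 arrays alone (0.0585), in a range from 0.00848. In DMSO 3 of the 13 were higher in HSC-1 and 6 lower, with the tight junction protein OCLN at -3.03 ± 0.17, OVOL1 at -1.27 ± 0.12 and EPCAM at -1.10 ± 0.05. OCLN lay below the array median on 1 of 3 HSC-1 arrays with DMSO.

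**Figure D4:**
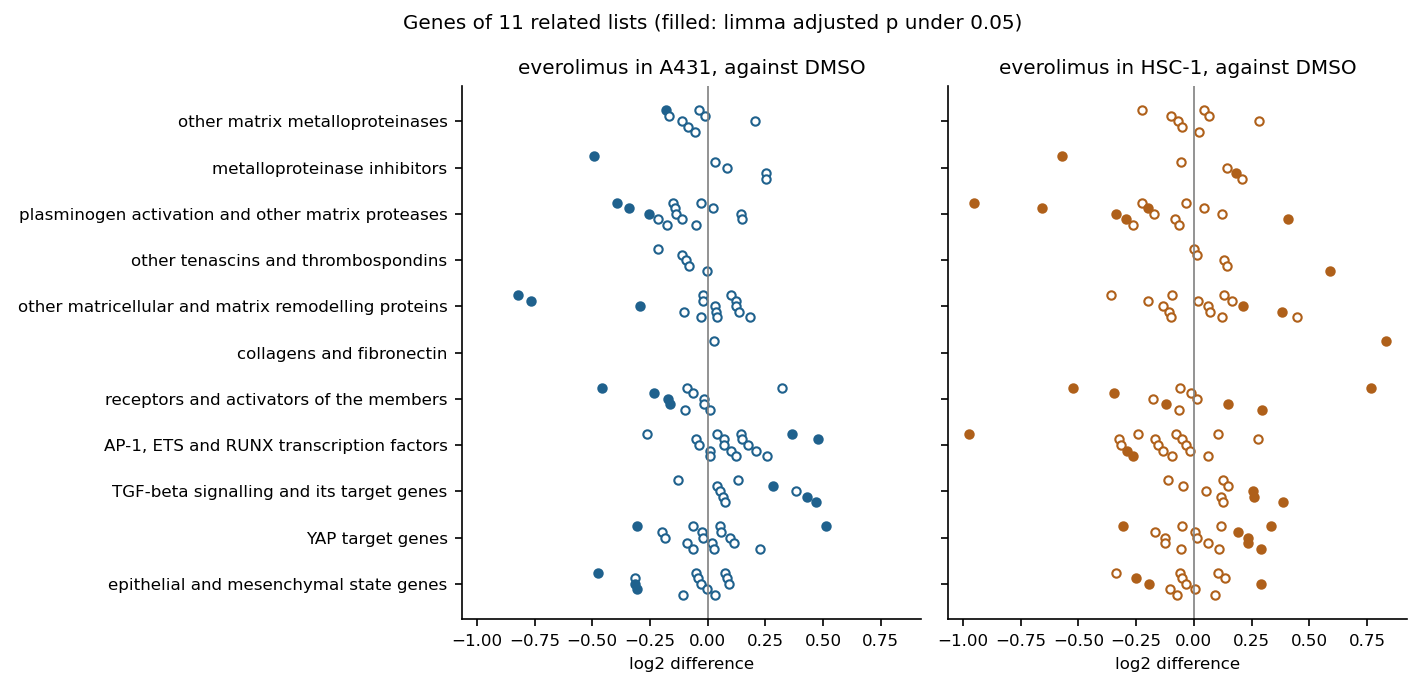
Log2 difference between everolimus and DMSO (horizontal axis) of each tested gene in 11 related lists (rows), in A431 on the left and HSC-1 on the right, with filled points for a limma adjusted p under 0.05. Points fall on both sides of 0 in most lists, with FOSL1 (-0.97) and ADAM12 (-0.95) at the low end in HSC-1 and FN1 (0.83) and F2R (0.77) at the high end.

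The genes whose pattern over the 12 arrays was most like each member were found by Pearson's r of the log2 levels among 1609 other genes whose group means spanned at least 1. The 12 points share their line and treatment, so a gene with a large line difference gets a high r, and no p is given. MMP1 was closest to LAPTM5 (r = 0.993), LYAR (0.992) and GLIPR1 (0.983), and MMP13 to DDA1 (0.996), NUP88 (0.995) and again GLIPR1 (0.995). GLIPR1 went from 9.49 to 8.61 in HSC-1 and lay at 7.20 and 7.18 in A431. TNC was closest to GSAP, RAD18 (each 0.999) and C5orf34 (0.998), and THBS1 to TUSC3 (0.999), BAIAP2L1 and ANXA3 (each 0.997). MXRA5 had THNSL1 (0.984), C12orf57 (0.978) and OGA (0.977), all higher in A431. None of these 14 genes is in the 11 lists.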

How the data were processed

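The authors deposited log2 expression per probe set, obtained by RMA (Affymetrix Expression Console, according to the submitters' processing notes). Tool versions, probe set level and build: not given in the sources used here. Before summarizing, RMA brings probe intensities to a shared distribution, so total RNA per cell cannot be compared. Extraction used TRI reagent and labelling used whole-transcript kits, per the labels' protocols.

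Here, probe sets were named through the platform annotation and updated by Entrez identifier (16098 matched), and the probe set with the highest mean was used per gene. The limma 3.58.1 functions lmFit and eBayes (R 4.3.3) fitted the 4 group means over 12 arrays and 10613 genes with an intensity trend, leaving 8 residual degrees of freedom; p-values were adjusted by Benjamini-Hochberg and SE are moderated. Comparisons were everolimus against DMSO in each line, the difference of those effects, and HSC-1 against A431 in DMSO. The procedure was tested on simulated data. Of log2 changes of 0.3 it recovered 33.3% in A431 and 22.7% in HSC-1, and of changes of 1, 98.3% and 98.6%. False calls made up 2.985% of the calls in A431 and 7.299% in HSC-1. A gene that did not pass may thus have changed by a small amount. Such rates vary with the number of changed genes. They need not hold for the arrays, where 714 genes were called in A431 and 1977 in HSC-1. Precision is limited by the 12 arrays.

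The members and lists were chosen with earlier results of these data known. Named genes are, per list and comparison, up to 3 passing genes with the largest change (the smallest p if none did), plus a panel. Markers of fibroblasts, keratinocytes, endothelium, leukocytes and melanocytes were read as levels. Alternatives were a replicate block, no or a stricter filter (60th percentile), no trend, a robust prior, array weights, renewed quantile normalization, median centring, 6 arrays alone, mean of probe sets, leaving out each array, an adjusted p of 0.01 and a 1.5-fold threshold.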

Additional observations from a re-analysis of the deposited data

Results flagged for a closer look

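For 2 of the members every everolimus array lay on one side of the DMSO mean in A431 and on the other side in HSC-1: MMP1, whose effect in HSC-1 less that in A431 was -1.59, and THBS1, at 0.35. For MMP1 the A431 groups overlapped (0.27 ± 0.15) and all 6 A431 arrays lay below the array median. For these 2 genes the difference was not tested, because the members were chosen with it known.

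The everolimus effect differed between the lines for 27 list genes (interaction contrast, limma adjusted p under 0.05), of which 25 were named by the rule and are given here. The effect in HSC-1 was above that in A431 for SPP1 (0.89), F2R (0.83), FN1 (0.81), THBS3 (0.80), TIMP2 (0.64), CTSK (0.62), ECM1 (0.57), SDC4 (0.47), BMP1 (0.46), CLDN1 (0.42), SDC1 (0.40), CRIM1 (0.36), FBLN1 (0.36), DKK1 (0.32), GRHL2 (0.26) and MMP14 (0.21). It was below that in A431 for FOSL1 (-1.15), ADAM12 (-1.10), TLR4 (-0.85), TIMP4 (-0.82), ETV4 (-0.61), LOXL2 (-0.52), JUN (-0.44), EPCAM (-0.34) and AXL (-0.28). SPP1 lay below the array median on all HSC-1 arrays and ADAM12 on all A431 arrays. TLR4 lay below it on all 3 A431 arrays with DMSO and 2 of 3 with everolimus. TIMP4 lay below it on 2 of 3 HSC-1 arrays with everolimus. Low signal therefore limits the values of SPP1, ADAM12, TLR4 and TIMP4. The calls of F2R, GRHL2 and AXL were lost without the intensity trend (adjusted p = 0.0689, 0.0706 and 0.055, in ranges from 0.00187, 0.00472 and 0.00499). The JUN call was lost in 8 alternatives (up to 0.0921, without HSC-1 everolimus array 2, from 0.00785), among them without A431 vehicle array 1 (0.0773) or 2 (0.0725), A431 everolimus array 1 (0.0785) or 3 (0.065) and HSC-1 vehicle array 1 (0.0749) or 3 (0.0739). LOXL2 lost its call without A431 vehicle array 2 (0.0599) or 3 (0.0616), A431 everolimus array 1 (0.0747), HSC-1 vehicle array 2 (0.0642) or 3 (0.0691) and HSC-1 everolimus array 2 (0.0652), in a range from 0.0126. For MMP14 it was lost in 9 alternatives (up to 0.103, without the trend, from 0.0136), among them without A431 vehicle array 1 (0.0622) or 2 (0.0782), A431 everolimus array 3 (0.0561), HSC-1 vehicle array 1 (0.0559), 2 (0.0652) or 3 (0.0503) and HSC-1 everolimus array 2 (0.0627).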

How the results depend on the processing

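Many of the 435 alternative values of the 20 member differences could not move. The filters, the trend, the prior, the replicate block and the 6 arrays alone leave a difference of group means unchanged. So does averaging probe sets, with 1 per member, or omitting an array of a group outside the comparison. Their sameness therefore says nothing of robustness. All but 4 of the 435 values moved by less than the residual SD between arrays. These 4 came from leaving out A431 everolimus array 2, and over all single-array omissions TNC in A431 ran from -0.080 to 0.086, its difference of effects from -0.59 to -0.43, THBS1 in A431 from -0.32 to -0.24 and its difference of effects from 0.32 to 0.40. The MMP13 level in HSC-1 with everolimus, whose SD is 0.0058, was 8.02 after renewed quantile normalization and 7.98 after median centring. Among all genes, the 714 calls in A431 became 438 without the intensity trend and 456 to 836 over single-array omissions (458 and 456 on omitting the A431 vehicle arrays 1 and 2). At an adjusted p of 0.01 the calls numbered 347 in A431, 1115 in HSC-1 and 541 for the difference of effects, and with a 1.5-fold threshold 66, 139 and 228, and 2817 for HSC-1 against A431. Those 2 thresholds were applied to all genes only. For the list genes together, the count stayed within 1.5 times its main value in each comparison under the other alternatives. Of 130 calls of named related genes, 30 were lost at an adjusted p of 0.05 in at least 1 of these refits and 0 changed sign. Same-numbered everolimus and DMSO arrays did not deviate together (correlations -0.15 to 0.02, best with their own number for 1 of 12 arrays). With 3 arrays in a group this cannot show whether arrays of the same number were handled together. With a replicate block the calls numbered 621 in A431, 1845 in HSC-1, 1005 for the difference of effects and 6212 for HSC-1 against A431. Low signal limits MMP1 in A431, which lay below the array median on all 6 arrays, and TNC there, which lay just above it. It may also limit MMP1 in HSC-1 with everolimus, whose mean lay 0.44 above it.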
